A study of Caenorhabditis elegans with 4 samples.

Results

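Chromosome II carried 452 of the 3006 NHR-11 binding peaks in the peak list of the whole series, and these 452 peaks are described here; a peak belongs to the set because the list places it on chromosome II. NHR-11 binding was mapped by chromatin immunoprecipitation and sequencing (ChIP-seq) in hermaphrodite L1 larvae of Caenorhabditis elegans strain OP305, labelled L1 26dC (the design text names another culture temperature). All libraries came from the same genotype, unc119(ed3) animals carrying wgIs305, a transgene introduced by bombardment that holds unc119 and an nhr-11 gene with TY1, EGFP and FLAG tags. The binding measured is therefore that of a tagged protein made from a transgene; the labels do not give the state of the native nhr-11 gene. The 4 samples were 2 ChIP libraries, made with anti-GFP antibodies, and 2 input libraries of the same lysates. Only the ChIP libraries had peak lists of their own (replicate 1 with 1247 peaks, replicate 2 with 1190), and neither input values nor a ChIP from untagged worms were analysed here.

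NHR-11 is a nuclear hormone receptor, a class of transcription factors that bind DNA through a zinc-finger domain and can be controlled by small lipophilic ligands; the family is greatly expanded in nematodes, and most worm members have no known ligand. Chromosome II is an autosome. In C. elegans, the central part of each autosome recombines little at meiosis and is rich in conserved genes, while the arms recombine more and hold more repeats. The L1 stage is the first larval stage, and libraries from whole larvae mix all tissues, so binding in few cells and weak binding in many cannot be told apart.

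The height of a peak is given throughout as −log10 of its q-value, the authors' measure of how firmly that peak was called; it depends on sequencing depth, which is unknown here, as well as on enrichment. Positions are on build WS220. No genome or annotation of that build was used, so peaks are named by position, and the genes and sequences under them were not analysed here. No p-values are given for chromosome II, because the lists hold 2 ChIP replicates of 1 condition and peaks are not replicates; 95% intervals are exact (Clopper-Pearson) and cover counting error only. The labels do not say whether the replicates were separate cultures, so the spread between them may be technical.

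In number per length, height and width, NHR-11 peaks on chromosome II lay close to those of the other 5 chromosomes pooled. Density was 29.6 peaks per Mb on II and 30.1 on the other 5 chromosomes, and it was 11.7 ± 0.0926 on II and 12.3 ± 0.458 elsewhere in the replicate lists (mean ± SD, n = 2). By chromosome, III was densest at 42.4 peaks per Mb and IV sparsest at 16.8, and V, at 29.4, came closest to II. Median height was 5.33 on II (quartiles 3.69 and 9.16) and 5.37 elsewhere. Median width was 403.5 bp on II (quartiles 285 and 611.5 bp) and 388 bp elsewhere. In the replicate lists the median height on II was 5.35 and 5.61, against 5.10 and 5.07 elsewhere. The median width there was 398 and 395 bp on II, against 397 and 392 bp elsewhere. These differences were not tested.

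Along the chromosome, peaks were fewest in the left part. From its left end to the last peak of any list, at 15267217, chromosome II was divided into 3 equal parts, called left arm, centre and right arm here, with boundaries after 5089072 and 10178145. These are parts of equal length only. They were not set by recombination or gene content and need not match the arms and centre described above. In the series list the left arm held 87 peaks (19.2%, interval 15.7 to 23.2%), the centre 199 (44.03%, 39.4 to 48.7%) and the right arm 166 (36.7%, 32.3 to 41.4%). Replicate 1 gave 36, 69 and 74 peaks from left to right, and replicate 2 gave 32, 80 and 65. The left arm was the poorest in every list, whereas the replicates disagreed on whether the centre or the right arm was richest. Per Mb the replicate lists averaged 6.68 ± 0.556 peaks in the left arm, 14.6 ± 1.53 in the centre and 13.7 ± 1.25 in the right arm (SD, n = 2), so that the centre and the right arm did not differ by more than the replicate spread.

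The right arm held 1.91 times as many peaks as the left arm in the series list, and 2.06 and 2.03 times as many in replicates 1 and 2. On the other chromosomes the same ratio in the series list ran from 0.639 on IV to 1.65 on X. It was 0.773 on V, 1.099 on III and 1.15 on I. In the replicate lists it was at most 1.12 on the other autosomes, and on X it was 1.49 and 1.45. The ratio on II was thus the highest of the 6 chromosomes in each of the 3 lists, a comparison chosen after the values were seen and not tested. Peak density in the left arm was 17.1 per Mb on II and 27.8 on the other autosomes together. In the centre it was 39.1 against 36.3 per Mb, and in the right arm 32.6 against 25.5.

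Windows of 500 kb showed where the left arm was sparse. Over the 30 full windows the series list had a mean of 14.6 ± 6.72 peaks (SD), with a range of 2 to 27. Windows of the left arm averaged 8.5 ± 5.48 peaks, those of the centre 19.5 ± 3.75 and those of the right arm 15.8 ± 5.63 (SD, n = 10 windows each). The left arm was not evenly poor: its first window held 16 peaks, the window from 2.5 to 3 Mb also held 16, and the 2 windows between 1.5 and 2.5 Mb held 2 each. No replicate peak at all fell between 2 and 2.5 Mb. The longest stretch of II without a series peak ran from 626284 to 1084844 (458.6 kb), and the next, of 378.5 kb, lay after 2059867. The median gap between neighbouring peaks was 15.5 kb.

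The richest window, from 6.5 to 7 Mb, held 27 series peaks, of which 7 were found in both replicates. The windows from 11.5 to 12 Mb and from 14 to 14.5 Mb followed with 25 and 24. Replicate support ordered the windows differently: those from 10.5 to 11 Mb and from 11.5 to 12 Mb each held 10 peaks found in both replicates, the most of any window. Window counts of replicate 1 and replicate 2 had a Spearman's rho of 0.904 over the 30 windows. This describes windows of 1 chromosome in 2 libraries and carries no test.

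**Figure D1:**
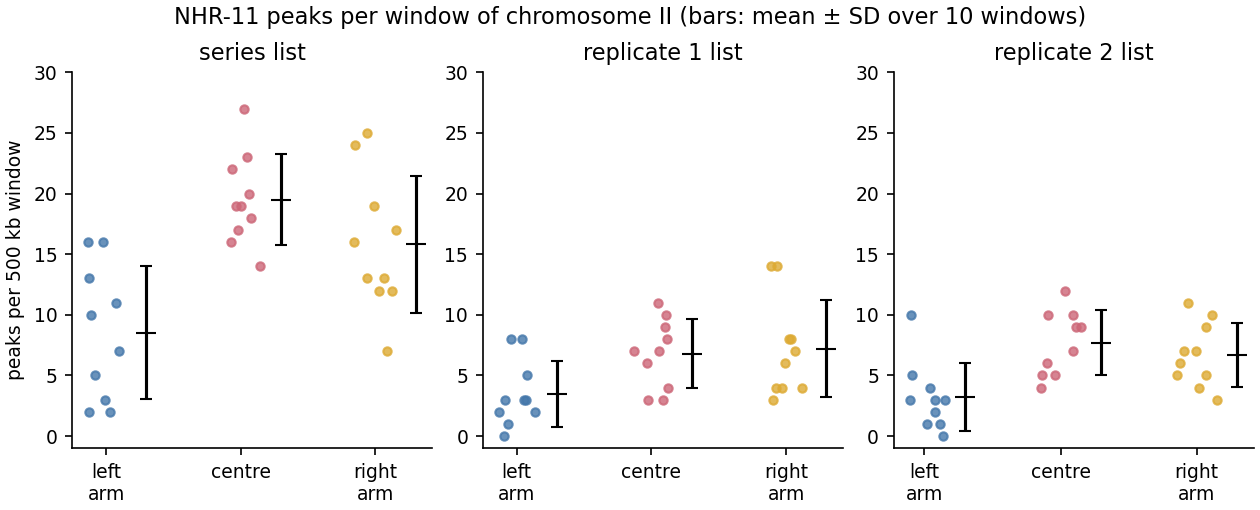
Peaks per 500 kb window of chromosome II (vertical axis) in the left arm, the centre and the right arm, for the series list and for both replicate lists; each point is 1 of the 30 full windows and black marks give the mean ± SD over 10 windows. Left-arm windows average 8.5 peaks in the series list, below the 19.5 of the centre and 15.8 of the right arm, and the order of the centre and the right arm differs between the replicate lists.

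Height was not distributed like number. Median height in the series list was 4.77 in the left arm, 5.32 in the centre and 5.65 in the right arm. The replicate lists gave a median of 4.80 ± 0.833 in the left arm, 4.83 ± 0.381 in the centre and 6.36 ± 0.168 in the right arm (SD, n = 2). Between them the order of the left arm and the centre turned, with 4.21 and 5.10 in replicate 1 and 5.39 and 4.57 in replicate 2. Of the 452 series peaks on II, 42 (9.29%) had a height of 20 or more. They numbered 4 of 87 in the left arm, 17 of 199 in the centre and 21 of 166 in the right arm. From left to right, replicate 1 had 0, 5 and 3 such peaks and replicate 2 had 1, 5 and 7. The replicates thus disagreed on the order of the centre and the right arm. Of the 10 highest peaks on II, 5 were central and 5 lay in the right arm, and the left arm contributed 1 of the 25 highest. Its highest peak, at 2973882 to 2974232, was 351 bp wide and had a series height of 37.5, and replicates 1 and 2 gave 15.2 and 22.3.

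The share of peaks found again was highest in the right arm of the series list. Both replicates held 55 of its 166 series peaks (33.1%, interval 26.03 to 40.8%), against 50 of 199 (25.1%, 19.3 to 31.7%) in the centre and 23 of 87 (26.4%, 17.6 to 36.98%) in the left arm. These intervals overlap, and the difference was not tested. Of replicate 2 peaks, 86.2% in the right arm and 63.75% in the centre met a replicate 1 peak. Of replicate 1 peaks, 77.03% in the right arm and 73.9% in the centre met a replicate 2 peak, so the size of this difference depended on the list.

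The highest peak on II had a height of 87.9, below the highest of X (194.6), III (139.9), IV (95.1) and V (91.7) and above that of I (73.4). None of the 10 highest series peaks lay on II, 5 of the 50 highest did (10%) and 13 of the 100 highest (13%), whereas II made up 15.2% of the length. Further down the list the share approached that figure, with 77 of the 500 highest (15.4%) and 149 of the 1000 highest (14.9%).

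The 10 highest peaks of II found in both replicates were also its 10 highest overall. First came a peak of 5404 bp at 10547675 to 10553078 (q = 1.37e-88, height 87.9), the widest on the chromosome. In replicate 1 the same interval was covered by 3 peaks, the highest of them at 24.2, and in replicate 2 by 2, the highest at 28.5. A single wide call in the series list thus corresponded to several narrower ones in each library.

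The second was a compact peak of 1068 bp at 5543323 to 5544390, with a series height of 87.0 and replicate heights of 41.4 and 47.1. Each replicate covered it with 1 peak, 1025 and 1075 bp wide. In the replicates it averaged 44.3 ± 4.06 (SD, n = 2). The highest replicate part of the wide peak that preceded it in the series list averaged 26.3 ± 3.04. The order of the 2 leading sites therefore differed between the lists. For the wide peak, however, a part in each replicate is set against the whole in the series list, so the orders are not alike in measure.

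The third, at 9599940 to 9603968 (4029 bp), was another wide peak, with a series height of 79.4 and with 42.5 in replicate 1 and 34.6 in replicate 2. Replicate 1 covered it with 1 peak of 3820 bp. Replicate 2 split it, and its strongest part was only 1241 bp wide. The centres of the 2 replicate peaks lay 1381.5 bp apart, the greatest distance among all pairs on II.

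The fourth peak, at 5844515 to 5845214, was narrow (700 bp) and repeated closely, with a series height of 69.7 and with 36.05 in replicate 1 and 38.4 in replicate 2. Both replicates placed their centres within 18.5 bp of each other. The fifth, at 11634983 to 11636523 (1541 bp), had 61.3, and its replicate values of 30.6 and 29.95 gave a mean of 30.3 ± 0.431 (SD, n = 2). This peak was the main member of a group of 4 neighbouring peaks.

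The sixth and the seventh were narrow central peaks at 6588761 to 6589458 and 8184855 to 8185326. Their series heights were 50.1 and 45.9. The sixth reached 24.5 in replicate 1 and 30.4 in replicate 2, and the seventh 27.4 and 28.1. Neither had a neighbour within 2 kb.

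The eighth, at 10541899 to 10544330 (2432 bp, height 45.5), and the tenth, at 10562960 to 10563876 (917 bp, height 43.2), flanked the leading peak of II. The eighth reached 18.8 in replicate 1 and 20.7 in replicate 2. The tenth reached 34.05 and 36.05, so that in the replicates it exceeded both the eighth and the highest part of the leading peak. Its series height was 0.616 of the sum of its replicate heights, the lowest ratio on II, while the leading peak had the highest at 1.67, and the median over the 128 peaks found in both replicates was 1.04. The sum for the leading peak counts only its highest part in each replicate, which raises its ratio.

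The ninth, at 14039319 to 14040809 (1491 bp, height 44.5), differed most between the replicates among these 10. It had 19.2 in replicate 1 and 33.1 in replicate 2, a mean of 26.1 ± 9.81 (SD, n = 2). Its rank in the replicate lists was 87 and 36. The other 9 differed by less than 1.5 times between replicates.

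Support in the replicate lists followed height. Of the 452 peaks, 128 (28.3%, interval 24.2 to 32.7%) overlapped a peak of both replicates by at least 1 bp, and the share over all chromosomes was 28.4%. A further 46 met a peak of replicate 1 alone (10.2%), 43 a peak of replicate 2 alone (9.51%) and 235 no replicate peak (51.99%). Elsewhere the shares were 28.4% for both, 11.9% and 9.36% for 1 replicate alone and 50.3% for none. Median height on II was 14.4 for peaks found in both replicates, 6.20 and 6.53 for those in replicate 1 or replicate 2 alone and 3.72 for those without support. Median width followed the same course, with 530.5, 397.5, 432 and 337 bp.

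By height, the passage from unsupported to supported peaks was sharp. None of the 146 peaks on II below a height of 4 was found in both replicates, which allows a share of up to 2.49% (upper exact limit). From 4 to 6 it was 1 of 116, from 6 to 10 it was 27 of 85 (31.8%), from 10 to 20 it was 58 of 63 (92.1%, interval 82.4 to 97.4%), and from 20 upwards all 42. Elsewhere the shares in the last 3 bands were 33.3%, 86.8% and 100%. Every list stops at a q of 0.001, which limits what a replicate list can hold at weak sites. Among peaks found in both replicates, series height was at the median 1.04 times the sum of the replicate heights. That ratio covers only peaks that passed the cut-off in both replicates, so it is unknown for weak peaks without support. How much of the rise of support with height the cut-off makes was not tested. Whether the series list was called on the pooled reads of both replicates is not given, so series and replicate peaks may share reads.

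**Figure D2:**
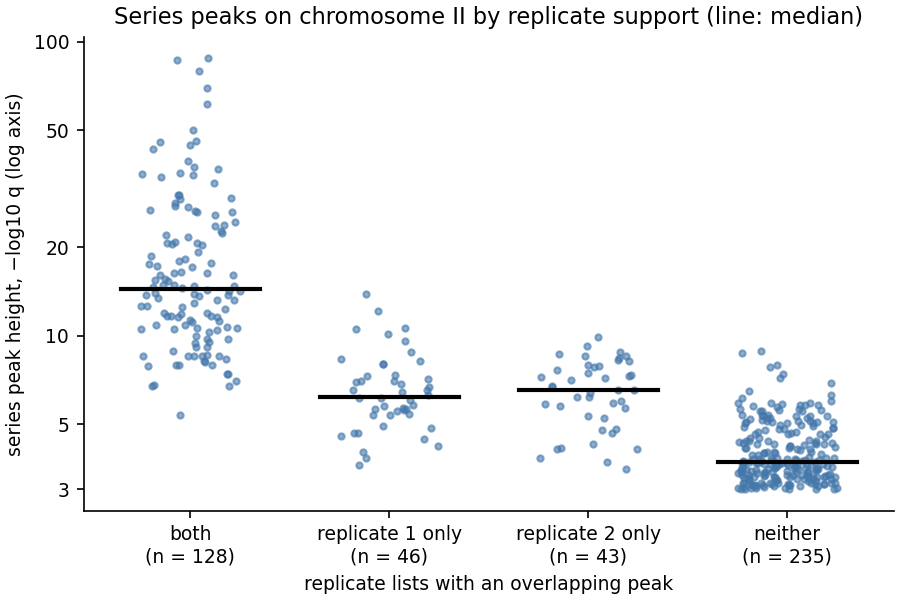
Height of each series peak on chromosome II (vertical axis, −log10 q on a log scale) by the replicate lists that hold an overlapping peak; points are peaks and black lines medians. Peaks found in both replicates range from 5.36 to 87.9 with a median of 14.4, and peaks found in neither stay at or below 8.90.

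The highest peak on II that neither replicate held lay at 11974289 to 11975024 (736 bp), with a height of 8.90 and position 116 among the peaks of II. It was followed by a peak of 201 bp at 11619906, with 8.75, and a peak of 502 bp at 14244231, with 7.94. All 3 lay in the right arm. At the other end, the lowest peak found in both replicates had a height of 5.36, at 5701487 to 5701883, with 3.25 in replicate 1 and 3.35 in replicate 2.

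Few replicate peaks lacked a series counterpart, on II or elsewhere. On the other chromosomes they were 30 of 1068 in replicate 1 and 33 of 1013 in replicate 2. On II they were 2 of 179 and 3 of 177. The highest of these 5 was in replicate 2 at 9404605 to 9405361 (757 bp), with a height of 4.92. The other 4 ran from 3.04 to 4.15, and none of the 5 overlapped a peak of the other replicate. Between the replicates, 131 of the 179 replicate 1 peaks (73.2%, interval 66.1 to 79.5%) met a replicate 2 peak, and 130 of the 177 replicate 2 peaks (73.4%, 66.3 to 79.8%) met a replicate 1 peak. Elsewhere the corresponding shares were 69.3% and 73.7%.

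Where both replicates held a peak, they placed it alike and gave it a similar height. The median distance between replicate centres was 31 bp on II and 43 bp elsewhere, and 98 of the 128 pairs on II (76.6%) lay within 100 bp. Heights differed by at most 1.5 times in 97 of the 128 pairs (75.8%) and by more than 2 times in 3. These pairs leave out sites that only 1 replicate held, so the similarity applies to the pairs alone. The highest site left out, at 13156877 to 13157231 (series height 13.8), had 10.5 in replicate 1 and no peak in replicate 2. The log2 ratio of replicate 1 to replicate 2 height had a median of -0.03 and an SD of 0.48 on II, and a median of 0.04 and an SD of 0.48 elsewhere. Spearman's rho over the 128 pairs was 0.802 (0.795 elsewhere), given as a description across peaks that share 2 libraries. Replicate 2 was the higher in 75 pairs and replicate 1 in 53.

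The 3 pairs that differed by more than 2 times were chosen for that difference and are given as a description. The peak at 5334668 to 5336170 (1503 bp) had 3.54 in replicate 1 and 10.2 in replicate 2. The peak at 9273889 to 9274270 (382 bp) had 6.83 and 13.9. The peak at 13447617 to 13448059 (443 bp) went the other way, with 8.04 in replicate 1 and 3.71 in replicate 2. Their replicate centres lay 192, 6 and 19.5 bp apart, so that the first pair was farther apart than the median of 31 bp and the other 2 were closer.

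**Figure D3:**
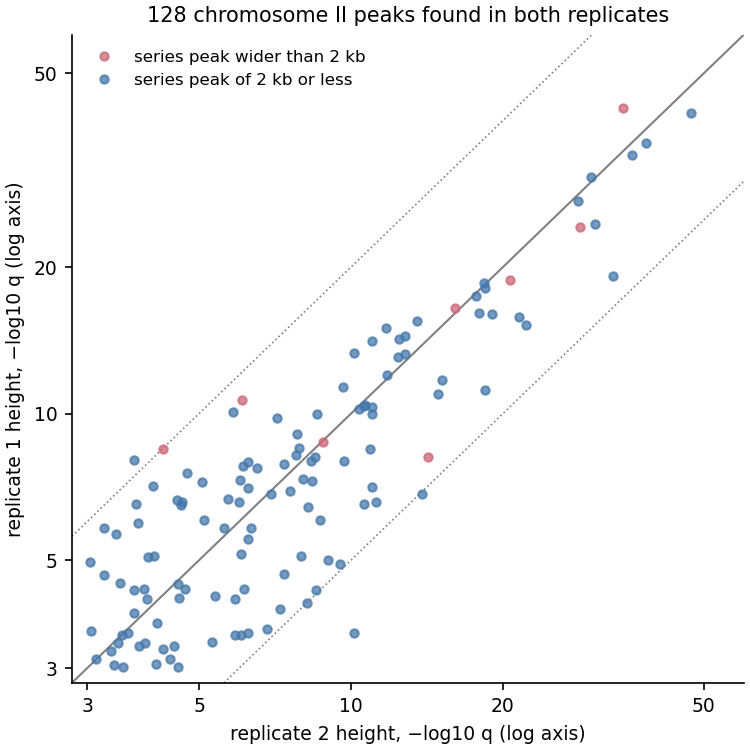
Height of the replicate 1 peak (vertical axis) against that of the replicate 2 peak (horizontal axis), both −log10 q on log scales, for the 128 series peaks on chromosome II found in both replicates; the solid line marks equal heights, dotted lines a difference of 2 times, and colours separate series peaks wider than 2 kb. All but 3 points lie between the dotted lines.

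Width varied over a wide range on II, from 2 to 5404 bp. Of the 113 narrowest peaks (2 to 282 bp) 5 were found in both replicates (4.42%), and of the 113 widest (613 to 5404 bp) 53 were (46.9%). In 4 classes of 113 peaks from narrow to wide, median height was 3.81, 5.34, 6.93 and 8.61. Spearman's rho of height and width was 0.437 in the series list (n = 452) and 0.480 and 0.482 in replicates 1 and 2, as a description across peaks of 1 list. The 22 peaks under 100 bp had heights of at most 5.90, none was found in both replicates and 2 were found in 1 of them.

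Peaks wider than 2 kb numbered 12 of 452 on II and 20 of 2554 on the other 5 chromosomes together, of which I had 4, IV 7, V 3 and X 6. IV had only 293 peaks in all, and its widest, at 11573 bp, was wider than any on II. Peaks above 3 kb numbered 5 on II and 9 elsewhere. The 12 peaks of II wider than 2 kb made up 14.6% of its summed peak length (35604 of 243400 bp). None lay in the left arm. In the replicate lists, 4 peaks on II were wider than 2 kb in replicate 1 and 3 in replicate 2, against 8 and 7 elsewhere. IV alone had as many as II, with 4 of its 75 peaks in replicate 1 and 3 of its 68 in replicate 2.

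Most of the wide peaks lay together. A stretch of 1.1 Mb that begins at 9.5 Mb, which was picked out for its wide peaks and straddles the boundary of the centre and the right arm, makes up 7.20% of the length of II. It held 48 of the 452 series peaks but 23.2% of their summed length, and replicate 1 and replicate 2 gave 26.1% and 24.3% of theirs. Peaks covered 5.13% of this stretch and 1.32% of the rest of II. Median width was 739.5 bp in the stretch and 394 bp in the rest of II in the series list. It was 757 and 379.5 bp in replicate 1 and 742.5 and 378 bp in replicate 2.

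Peaks above 1 kb were 16 of the 48 in the stretch (33.3%) and 22 of 404 outside it (5.45%). All 5 peaks above 3 kb and 9 of the 12 above 2 kb were in the stretch. Density there was 43.6 peaks per Mb, against 28.5 in the rest of II. That rest includes the sparse left arm (17.1 per Mb). The whole centre had 39.1 per Mb and the whole right arm 32.6, closer to the stretch. Height did not follow in the series list, with a median of 5.36 in the stretch and 5.32 outside it. In the replicate lists it did, with 8.47 against 5.04 in replicate 1 and 7.25 against 5.37 in replicate 2. The whole right arm had 6.48 and 6.25 there and the whole centre 5.10 and 4.57. Height rose with width in these lists (Spearman's rho 0.480 and 0.482). The stretch was picked for wide peaks, so its greater height is not independent of that choice. Of the 48 peaks, 15 were found in both replicates (31.2%, interval 18.7 to 46.3%), against 113 of 404 in the rest of II (27.97%, 23.6 to 32.6%).

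**Figure D4:**
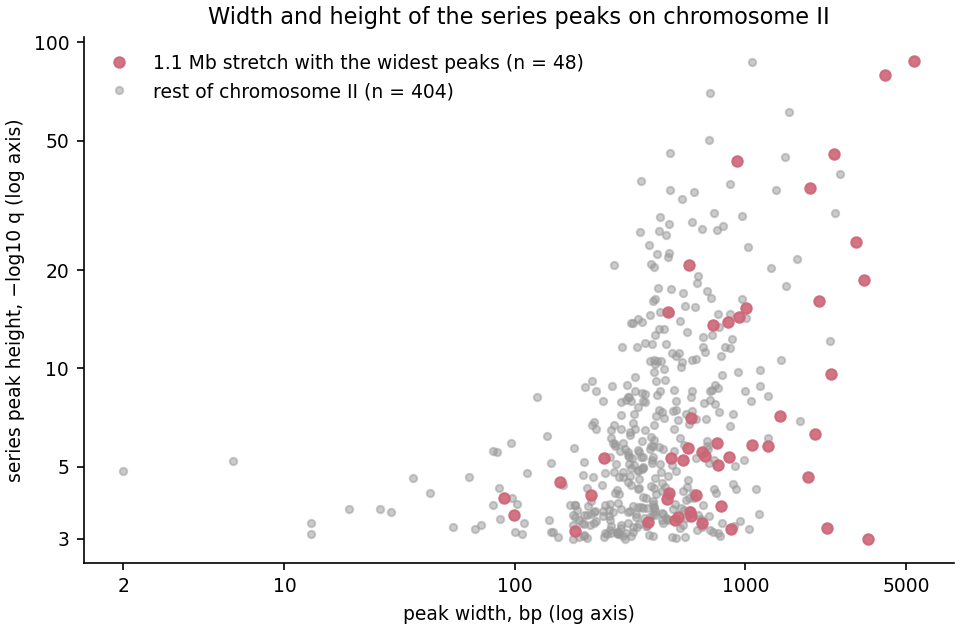
Width (horizontal axis, bp, log scale) and height (vertical axis, −log10 q, log scale) of the 452 series peaks on chromosome II, with the 48 peaks of the 1.1 Mb stretch that holds the widest peaks in red and the other 404 in grey. All 5 peaks wider than 3 kb are red, and their heights run from 3.00 to 87.9.

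Of the 9 series peaks wider than 2 kb in this stretch, 3 lay in a compact run near its right end, which included the highest peak of II. Chained at gaps of at most 5 kb, 8 series peaks lay between 10537728 and 10563876, where they covered 15438 of 26149 bp (59.04%). This run alone held 6.34% of the summed peak length of II in the series list, and 12.6% and 12.1% in replicates 1 and 2. Replicate 1 had 8 peaks there and replicate 2 had 6.

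From left to right, the run began with a peak of 566 bp (height 5.69) that was found in replicate 1 only. Then came the 2432 bp peak that ranked eighth on II. A peak of 670 bp (5.38), found in neither replicate, stood 573 bp before the leading peak. To its right followed a peak of 3024 bp at 10553737 to 10556760, with a series height of 24.4 and with 10.7 in replicate 1 and 6.07 in replicate 2. A peak of 509 bp (3.51), again in neither replicate, separated it from a peak of 1916 bp at 10558301 to 10560216, with 35.8, 15.8 and 21.5. The tenth peak of II closed the run.

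Inside the leading peak, both libraries put the highest part at its right end. Replicate 1 had 10.9 over 1895 bp, 4.11 over 1146 bp and 24.2 over 1550 bp, from left to right. Replicate 2 had 22.5 over 3446 bp and 28.5 over 1616 bp. The rightmost part began at 10551518 in replicate 1 and at 10551417 in replicate 2, so both lists parted the peak at nearly the same place. The gap before that part was 298 bp in replicate 1 and 296 bp in replicate 2. These were the smallest gaps between neighbouring peaks on II in each list.

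**Figure D5:**
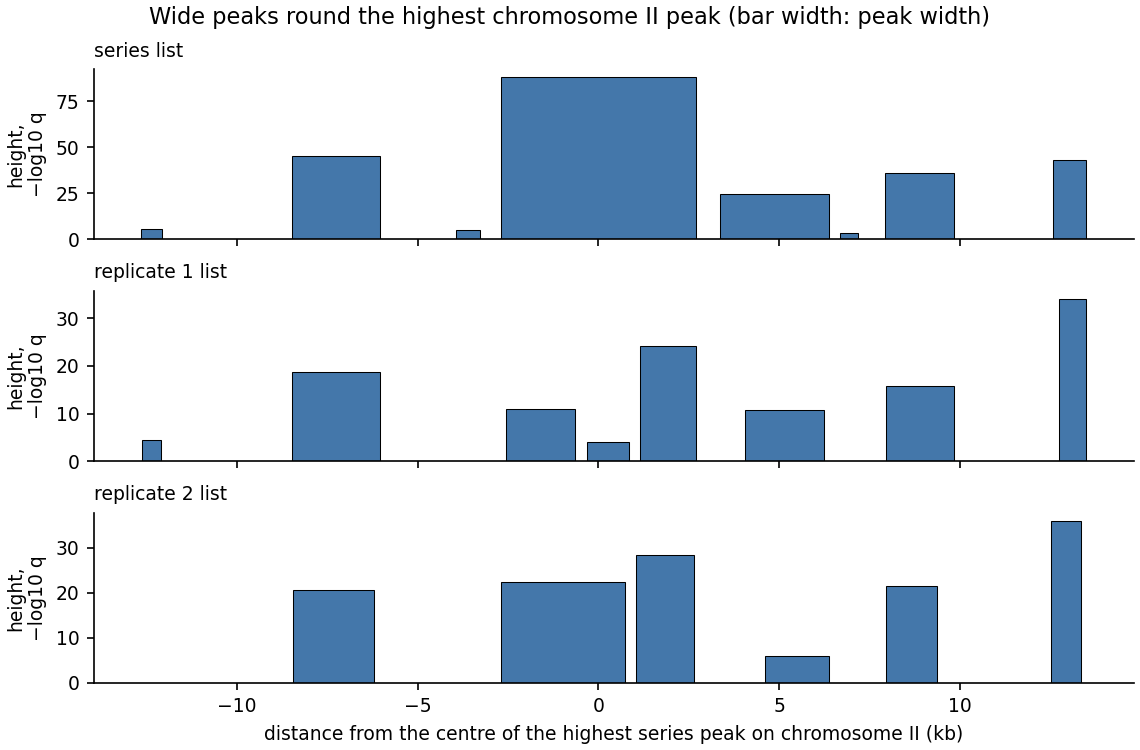
Peaks of the run round the highest chromosome II peak as called in the whole series and in replicates 1 and 2; the horizontal axis is the distance in kb from the centre of that peak, bar width is peak width, and bar height is −log10 q on a scale of its own in each panel. The 5404 bp series peak corresponds to 3 replicate 1 peaks and 2 replicate 2 peaks, and the narrow peak at the right end reaches 34.05 and 36.05, the highest of the run in either replicate.

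The other 6 peaks wider than 2 kb in the stretch were scattered along it and differed in support. The third peak of II, at 9599940, lay between 2 weaker neighbours of 1065 bp (5.81) and 1876 bp (4.66), of which the first was in neither replicate and the second in replicate 2 only. A peak of 2343 bp at 9644460 to 9646802 (9.62) was found in replicate 1 only. At 10168175 to 10170255, a peak of 2081 bp reached 16.1, with 8.74 and 8.81 in the replicates, beside a peak of 2268 bp at 10164827 (3.24) found in neither.

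A peak of 3258 bp at 10444977 to 10448234 had a series height of 18.6, and replicates 1 and 2 gave 8.47 and 4.24. The peak at 10370734 to 10374135 was the third widest on II at 3402 bp and carried the last rank number of the whole series list, 3018, with a height of 3.00; neither replicate held it. The 5 widest peaks of II thus held both its highest peak and one of its lowest.

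Outside the stretch, 3 peaks exceeded 2 kb, all of them central. At 6346651 to 6349234 (2584 bp) the series height was 39.4, and the replicates gave 16.5 and 16.04. At 7058766 to 7061098 (2333 bp) it was 12.2, with 8.33 in replicate 1 and no peak in replicate 2. At 5336453 to 5338898 (2446 bp) it was 30.1, with 8.13 and 14.2 in the replicates. This last peak belonged to a second run of 7 peaks between 5321702 and 5341078, where peaks covered 43.2% of 19.4 kb. The run held 5 peaks in replicate 1 and 7 in replicate 2.

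Peaks within 2 kb of each other, measured from edge to edge, numbered 113 of 452 on II (25%, interval 21.1 to 29.3%), in 46 groups. The share over all chromosomes was 29.1%. On the other 5 chromosomes it was 29.9% (763 of 2554). The interval for II treats peaks as independent. Each grouped peak makes its neighbour grouped too, so the interval is too narrow to judge this difference. In the replicate lists the shares were 14.5% and 16.9% on II (mean 15.7 ± 1.71, SD, n = 2), against 18.8% and 21.03% elsewhere (mean 19.9 ± 1.56, SD, n = 2). These differences between II and the other chromosomes were not tested. Since lists with more peaks leave smaller gaps, shares compare only within a list.

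Of the 46 groups, 33 were pairs, 8 had 3 members, 2 had 4 and 3 had 5. The 67 gaps within groups had a median of 930 bp and ran from 214 to 1973 bp. Grouped peaks were wider than solitary ones, with a median of 524 against 387 bp (series), 520.5 against 380 bp (replicate 1) and 540.5 against 385 bp (replicate 2). Gaps were measured between edges, so peak width itself enters the grouping. How much of the width difference this makes was not tested. Grouped peaks had a median height of 5.57 against 5.24 for solitary ones in the series list. The difference was larger in the replicate lists, with 6.92 against 5.07 in replicate 1 and 7.25 against 5.37 in replicate 2. It was not tested. In the series list 29.2% of grouped peaks and 28.02% of solitary ones were found in both replicates.

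Groups differed in how far 1 peak stood above the others. The highest member was over 2 times as high as the next in 14 of 46 groups, and the median ratio was 1.51. In 24 groups no member was found in both replicates, in 12 exactly 1 was, and in 3 every member was. No replicate peak on II overlapped more than 1 series peak, so the replicates never bridged neighbours that the series list kept apart.

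The 3 groups of 5 differed in make-up. The first was the core of the run of wide peaks, from 10546432 to 10560216, where peaks covered 83.6% of 13.8 kb. The second, from 14036739 to 14044854, held the ninth peak of II and a peak of 967 bp at 14043888 with a series height of 29.4 and with 14.2 in replicate 1 and 12.4 in replicate 2. Its other 3 members had heights of 3.30, 5.65 and 3.01, and neither replicate had a peak in their place. The third, from 8740426 to 8747406, was weak, with a highest member of 17.3 at 8741800 to 8742483, which had 8.15 in replicate 1 and 8.51 in replicate 2. Of its other 4 members, at 3.53, 4.26, 5.32 and 8.30, only the last, at 8746992, was found in replicate 1 (4.11), and none in replicate 2.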

How the data were processed

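The authors deposited 3 peak lists, 1 for each ChIP replicate and 1 for the series. PeakSeq made them on WormBase build WS220, per the file headers. Not given in the sources used here are the aligner, the PeakSeq version, the role of the input and any pooling of replicates. The score of each peak was read as a q-value given by the authors, since score times rank never fell with rank. Height is −log10 q. Peak starts and ends were used as deposited. Rank numbers absent from the lists (12 in the series list, 3 in replicate 1, 1 in replicate 2) belong to peaks not analysed here.

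Support meant an overlap of at least 1 bp; the overlapping peak with the lowest q gave the replicate value. Peaks were assigned to arms, centre and 500 kb windows by their centre. Groups were chained at edge gaps of at most 2 kb. Overlap and chaining were tested on simulated data. Read counts are not given, so depth and its precision are unknown. Named peaks were the 10 highest of II found in both replicates, all wider than 2 kb, the highest in neither replicate, the members of the 3 longest groups and the highest replicate peak without a series peak; others were named after their values were seen. The stretch, thresholds and members were chosen with earlier results of these data known. Planned annotation and sequence of named peaks were not run, for want of a WS220 genome. Alternatives varied the list, the q threshold, the overlap rule, the gap and the central share. Scripts ran in Python 3.11.15 with pandas 2.3.3, NumPy 2.4.6 and SciPy 1.17.1, and figures in matplotlib 3.10.9.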

Additional observations from a re-analysis of the deposited data

How the results depend on the processing

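Of 42 alternatives, 35 moved a value by more than the spread between replicates (for counts, by more than 1.5 times; for the share found in both replicates, beyond its interval) and 7 did not. The order of the centre and the right arm turned in 2 of them: the centre held 199 and the right arm 166 series peaks, but replicate 1 alone gave 69 and 74, and peaks found in both replicates 50 and 55. With q at or below 1e-05, II held 246 peaks, a median height of 8.55, a median width of 476 bp, 44 peaks with a neighbour within 2 kb, 52.03% of peaks found in both replicates, 25.6% of peak length in the 1.1 Mb stretch and a right to left ratio of 2.24. Among peaks found in both replicates these were 128 peaks, 14.4, 530.5 bp, 19 peaks, 28.5% and 2.39, with 39.1% in the centre. These 2 settings drop weak peaks by construction. Over the replicate lists taken alone, II had 177 to 179 peaks, 38.5 to 45.2% of them central, a median height of 5.35 to 5.61, a median width of 395 to 398 bp, 26 to 30 peaks with a neighbour, 24.3 to 26.1% of peak length in the stretch and a ratio of 2.03 to 2.06. Support in a single replicate was 37.8 to 38.5%. A reciprocal overlap of 50% gave 23.9% found in both, and centres within 100 bp 21.5%. The central 50% of the length held 59.07% of peaks. Neighbours numbered 67 at 1 kb and 208 at 5 kb, and 79 when centres rather than edges had to lie within 2 kb. The share of peak length in the stretch was 16.6% without peaks wider than 3 kb and 17.97% without the run round the highest peak. Merging peaks within 2 kb gave a ratio of 1.77. The alternatives for the ratio and the one without that run were chosen after seeing the data. No paired analysis was possible because only the ChIP group had peak lists. Depth is unknown, so the limit it sets on weak peaks cannot be given.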
